A study of Mus musculus with 2 samples.

Results

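The genes described here build and seal the outer layer of the epidermis. They are a set of 35 genes picked by symbol, out of 31053 features in the count tables, and each of the 35 symbols matched 1 feature. The set was read in 4 classes of keratinocytes defined by keratin transcripts alone, so no member took part in choosing the cells. As keratinocytes leave the basal layer they replace Krt5 and Krt14 with Krt1 and Krt10, and in the granular layer they make structural proteins such as loricrin, involucrin and the small proline-rich proteins, which transglutaminases crosslink under the plasma membrane into the cornified envelope. Lipids are bound to this envelope and fill the spaces between the dead cells, while desmosomes hold the cells together until proteases cut them and the cells are shed. The upper hair follicle carries a related program where the canal opens to the surface.

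Droplet-based single-cell RNA-seq was run on dissociated back skin at postnatal day 53, with 1 library from a control mouse and 1 library from a mouse in which miR-205 can be induced. Both mice carried a K14-H2BGFP allele, a green nuclear reporter in keratinocytes, were gender matched and are given as C57BL/6. Cells were sorted so that epidermal, follicle and dermal cells entered in fixed proportions, which means that shares of these compartments reflect the sort. The inducible mouse carries a pTRE2-miR-205 transgene made in FVB mice together with Krt14-rtTA, so expression is driven in keratinocytes by the Krt14 promoter, which is at its strongest in basal cells, and it received doxycycline chow for 4 days from postnatal day 49. The protocol describes doxycycline for both mice, while the label of the control reads untreated, and the control's alleles at the transgene are not given. With 1 library per group there is no test of induction, and a difference between the libraries cannot be told apart from a difference between the animals. All intervals are exact, at 95%, and cover counting error only, not the spread between mice or between cells.

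The mature microRNA that the transgene encodes is shown because its seed (bases 2 to 8, in capitals) is what pairs with messenger RNA. It lies on the minus strand at chr1:193507503-193507524 of GRCm38.p6 (RefSeq).
mmu-miR-205-5p: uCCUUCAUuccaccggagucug
The letters that pair with this seed, ATGAAGG, were looked for in the longest annotated 3′ UTR of each gene (GENCODE vM1, build NCBIM37). They occurred in 2 of the 34 members with an annotated 3′ UTR (5.88%), the desmosomal cadherins Dsg1a and Dsc1, and in 10.4% of the 19915 genes with one. The members' 3′ UTRs were shorter, with a median of 382 bases against 893 bases over all genes. A match to these letters describes the sequence and is not evidence of targeting.

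Several members are neighbours in the genome. Of the 35, 8 lie on chromosome 3 within chr3:92080271-93221377, in the order Lor, Sprr2d, Sprr1b, Sprr1a, Ivl, Lce1a1, Crct1 and Flg2, and Sbsn, Dmkn and Krtdap follow each other within chr7:30732674-30791089. Promoters of 300 bases (250 before and 50 after the annotated start, RefSeq, GRCm38.p6) were found for 26 members. The AP-1 letters TGANTCA, which fit the site of the Fos and Jun family on either strand, occurred in 9 of these 26 genes (34.6%) against 8.97% of 27025 genes with a promoter. All 9 lie in these 2 loci: Lor, Sprr2d, Sprr1b, Sprr1a, Ivl and Flg2 on chromosome 3, and Krtdap, Sbsn and Dmkn on chromosome 7. The TATA letters TATAAA on either strand occurred in 8 of the 26 (30.8%) against 15.7%, and the grainyhead letters AACCNGTT in 1 of the 26, Tgm5, against 2.35%. The following promoters are printed because their genes carry the contrast between broadly and sparsely expressed members described further on, with both motifs in capitals.
Krtdap, plus strand, chr7:30787655-30787954: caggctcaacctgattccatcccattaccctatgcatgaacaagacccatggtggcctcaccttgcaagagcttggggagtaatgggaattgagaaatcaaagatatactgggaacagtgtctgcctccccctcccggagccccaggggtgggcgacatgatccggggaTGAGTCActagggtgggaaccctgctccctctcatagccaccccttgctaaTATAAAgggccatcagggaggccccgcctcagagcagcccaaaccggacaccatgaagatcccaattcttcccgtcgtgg
Sbsn, plus strand, chr7:30751221-30751520: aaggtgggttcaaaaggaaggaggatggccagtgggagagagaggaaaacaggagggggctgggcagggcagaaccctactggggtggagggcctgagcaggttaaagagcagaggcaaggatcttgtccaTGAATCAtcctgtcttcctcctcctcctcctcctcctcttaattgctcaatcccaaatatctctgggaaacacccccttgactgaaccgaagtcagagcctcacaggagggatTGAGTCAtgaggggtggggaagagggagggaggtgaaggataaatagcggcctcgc
Lor, minus strand, chr3:92083093-92083392: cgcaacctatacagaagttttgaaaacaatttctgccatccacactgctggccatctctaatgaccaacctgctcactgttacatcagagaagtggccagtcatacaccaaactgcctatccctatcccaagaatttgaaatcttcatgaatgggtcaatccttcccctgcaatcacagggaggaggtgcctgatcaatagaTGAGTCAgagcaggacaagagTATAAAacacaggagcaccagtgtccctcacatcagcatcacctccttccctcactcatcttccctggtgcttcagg
Sprr1a, minus strand, chr3:92485832-92486131: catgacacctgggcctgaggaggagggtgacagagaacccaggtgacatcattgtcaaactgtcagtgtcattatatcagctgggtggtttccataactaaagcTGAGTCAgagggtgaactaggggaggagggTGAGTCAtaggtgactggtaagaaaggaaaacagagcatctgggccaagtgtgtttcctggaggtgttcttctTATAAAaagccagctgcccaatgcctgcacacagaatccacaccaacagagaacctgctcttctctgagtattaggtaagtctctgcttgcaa
The AP-1 letters begin 81 bases before the annotated start in Krtdap and 48 bases before it in Lor. They occur at 2 places in Sbsn, 119 and 6 bases before the start, and at 2 places in Sprr1a, 146 and 116 bases before it. Lor, Krtdap and Sprr1a also hold the TATA letters, at 27, 30 and 43 bases before the start, and Sbsn does not.

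The libraries held 4545 control and 4264 induced barcodes, with 55465594 and 49733560 unique molecular identifiers (UMIs, each counting 1 captured transcript end), and 3936 and 3628 cells were kept. Of the barcode sequences, 11 occurred in both libraries. The basal class had 2550 control and 1991 induced cells, the suprabasal class 85 and 84, the upper follicle class (Krt79) 591 and 524, and the inner bulge class (Krt75 and Krt6a, the old inner layer around the club hair) 21 and 61. The basal class is not only interfollicular. Only 597 of its 2550 control and 509 of its 1991 induced cells had Krt17, a keratin of the follicle, under 5 per 10000 UMIs. Most of the class was at or above that level, so setting suprabasal against basal cells is not a comparison within the epidermis alone. Defb6, a marker outside the class rule, fitted the upper follicle label. It was at 14231 and 12491 CPM (UMIs of the gene scaled to 1000000 UMIs of the class) in control and induced upper follicle cells. In suprabasal cells it was at 509 and 129. The 5 fibroblast markers summed to at most 36.6 CPM in any of the 4 classes, and the 3 melanocyte markers to at most 3.46 CPM. The class rule itself limited Col1a1, Col1a2, Col3a1, Pmel and Mlana, so these low sums are not an independent check.

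The set marked differentiated cells in both libraries. Members took 3.92% of control and 3.45% of induced suprabasal UMIs, 5.42% and 5.58% in the upper follicle, and only 0.394% and 0.496% in basal cells. Of 33 members with enough UMIs, 28 were at least 2-fold higher in suprabasal than in basal cells in both libraries, with a median fold of 16.95 in the control and 12.3 in the induced library. The share of all genes past 2-fold is not given here, so this count has no background. Some of the 28 rest on few cells. Without each gene's 5 highest cells per class, control Lor was at 9.16 CPM in suprabasal and 9.94 in basal cells, and control Crct1 at 11.7 and 10.9. Control Krtdap kept its difference, at 6723 and 75.8 CPM. The same class was highest in both libraries for 26 of the 35. It was suprabasal for 15, among them Krtdap, Dmkn, Calm4, Dsg1a, Casp14, Abca12, Aloxe3, Ppl and Evpl, and upper follicle for 9: Cdsn, Klk7, Sprr1a, Tgm1, Cst6, Ly6g6c, Dsc1, Grhl3 and Klf4. Calml3, a calmodulin-like protein, and Tgm5, a transglutaminase, were highest in the inner bulge. These ranks are among the 4 classes, and in the Krt24 class that was set aside Calml3 (490.4 and 789.6 CPM), Tgm5 (346 and 233 CPM) and Klf4 (3163 and 3024 CPM) were higher still in both libraries. Calml3, Tgm5 and Klf4, a transcription factor of barrier formation, were lower in suprabasal than in basal cells in both libraries.

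**Figure D1:**
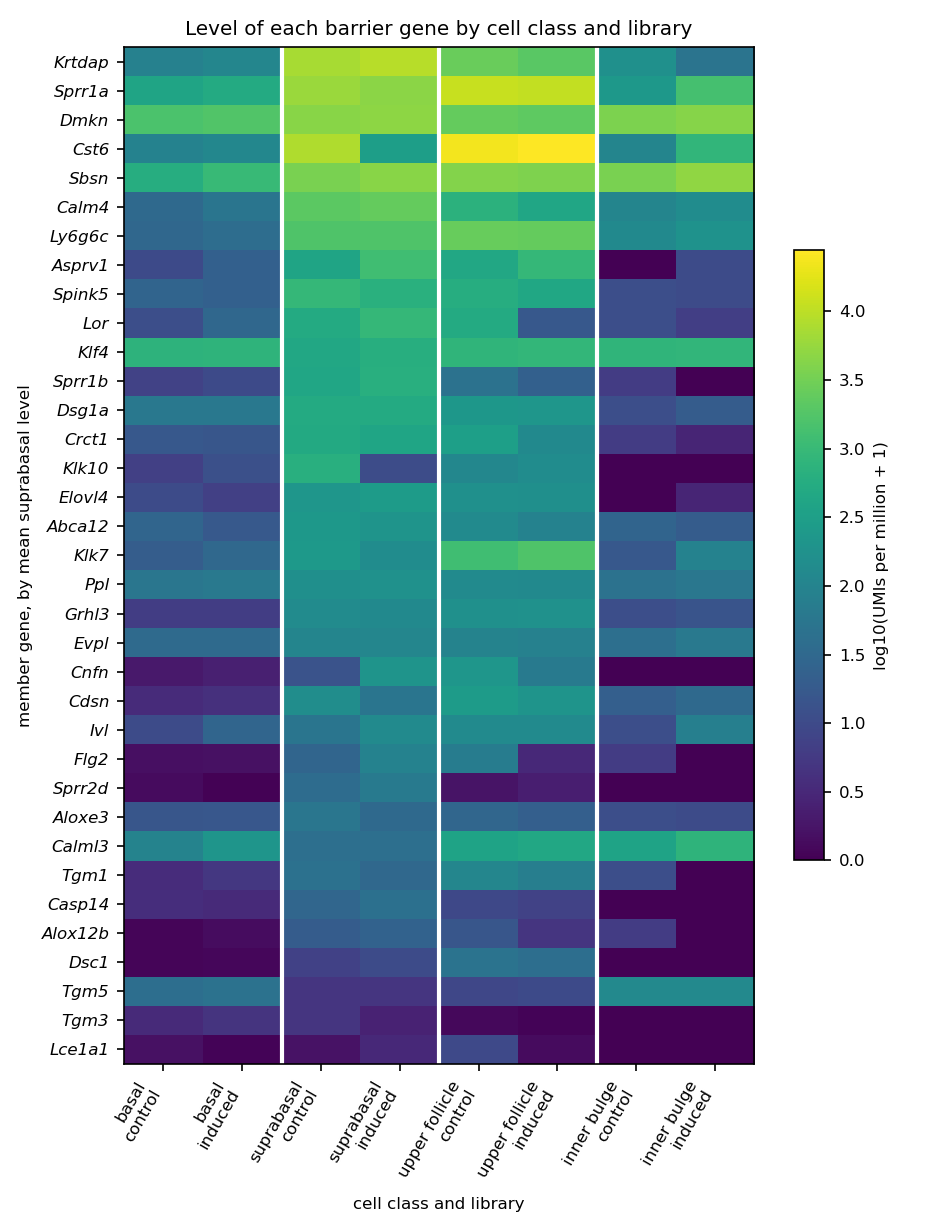
Level of the 35 genes (rows, ordered by mean suprabasal level) in 4 cell classes of the control and induced library (columns), as log10 of CPM plus 1. Krtdap, Dmkn and Calm4 are brightest in suprabasal cells and Cst6 and Sprr1a in the upper follicle of both libraries, whereas Cst6 and Klk10 differ between the 2 suprabasal columns.

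Among the secreted proteins, the neighbours Krtdap, Sbsn and Dmkn were abundant in nearly every suprabasal cell. Krtdap, keratinocyte differentiation-associated protein, gave 11830 UMIs (7419.7 CPM) in the control and 16546 UMIs (9173 CPM) in the induced library, a log2 ratio of 0.31 (0.27 to 0.34). Its suprabasal level was 84.1 times the basal level in the control and 83.1 times in the induced library. Suprabasin (Sbsn), the protein named after this layer, gave 5640 UMIs (3537 CPM) in the control and 8116 UMIs (4499 CPM) in the induced library, a log2 ratio of 0.35 (0.30 to 0.40). Dermokine (Dmkn) gave 7060 UMIs (4428 CPM) in the control and 8935 UMIs (4953 CPM) in the induced library, a log2 ratio of 0.16 (0.12 to 0.21). All 3 intervals lie above 0, but the excess came from a few cells: without the 5 cells with most UMIs of the gene in each library the ratios were -0.04 for Krtdap, 0.02 for Sbsn and 0.06 for Dmkn. A single induced cell with 60835 UMIs in all held 3168 of the Krtdap and 1803 of the Sbsn UMIs. The median suprabasal cell held 134 Krtdap UMIs in the control and 128 in the induced library. Calm4, a calmodulin-like calcium-binding protein, gave 3389 UMIs (2126 CPM) in the control and 4476 UMIs (2481 CPM) in the induced library, a log2 ratio of 0.22 (0.16 to 0.29), and 0.09 without the 5 highest cells. Ly6g6c, a membrane-anchored Ly6 protein, gave 2607 UMIs (1635 CPM) in the control and 3044 UMIs (1688 CPM) in the induced library, a log2 ratio of 0.05 (-0.03 to 0.12). For these 5 abundant genes, the induced library was thus within 1.5-fold of the control.

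The cornified envelope precursors and filaggrin-type proteins showed the opposite distribution, with most UMIs in very few cells. Loricrin (Lor), a major envelope protein, gave 838 UMIs (526 CPM) in the control and 1650 UMIs (915 CPM) in the induced library, a log2 ratio of 0.80 (0.68 to 0.92) in suprabasal cells. A single control cell held 700 of these UMIs and a single induced cell 1640, and without the 5 highest cells in each library 20 UMIs were left in all. Involucrin (Ivl), an early envelope scaffold, gave 82 UMIs (51.4 CPM) in the control and 241 UMIs (134 CPM) in the induced library, a log2 ratio of 1.37 (1.01 to 1.76), and 15 control and 17 induced cells had a UMI. Without cells in which Lor took 1% of UMIs or more, the Lor ratio was -3.57. Filaggrin-2 (Flg2), a filaggrin-like protein, gave 44 UMIs (27.6 CPM) in the control and 169 UMIs (93.7 CPM) in the induced library, a log2 ratio of 1.75 (1.28 to 2.28), with 168 of the induced UMIs in 1 cell. Cornifelin (Cnfn), an envelope component, gave 20 UMIs (12.5 CPM) in the control and 353 UMIs (196 CPM) in the induced library, a log2 ratio of 3.93 (3.31 to 4.69), and the 2 highest induced cells held 249 and 100 of these. Without the 5 highest cells, Cnfn had 3 UMIs and Flg2 had none. Crct1, cysteine-rich C-terminal 1, gave 807 UMIs (506 CPM) in the control and 727 UMIs (403 CPM) in the induced library, a log2 ratio of -0.33 (-0.48 to -0.18), of which 1 induced cell held 715. Lce1a1, a late cornified envelope protein, had 1 control and 4 induced UMIs, too few to compare.

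The small proline-rich proteins, crosslinking bridges of the envelope, differed among themselves. Sprr1a was detected in 82 of 85 control and 69 of 84 induced suprabasal cells and gave 9567 UMIs (6000.4 CPM) in the control and 8517 UMIs (4722 CPM) in the induced library, a log2 ratio of -0.35 (-0.39 to -0.30). The ratio without the 5 highest cells, -0.35, was the same. Sprr1b was rarer and on the other side of 0, with 667 UMIs (418 CPM) in the control and 1158 UMIs (642 CPM) in the induced library, a log2 ratio of 0.62 (0.48 to 0.76) and a ratio of 0.60 (0.39 to 0.81) without the 5 highest cells. With CPM averaged over cells the ratio was -0.05, and 32 control and 27 induced cells had a UMI. Sprr2d had 58 control UMIs in 7 cells and 116 induced UMIs in 2 cells, a log2 ratio of 0.82 that 1 induced cell with 91 UMIs decided.

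The proteases and inhibitors that time shedding gave the widest differences, and these too came from single cells. Cystatin M/E (Cst6), an inhibitor of cathepsins, gave 12904 UMIs (8093 CPM) in the control and 553 UMIs (307 CPM) in the induced library, a log2 ratio of -4.72 (-4.85 to -4.60). In the control, 3 cells held 5028, 4147 and 3299 of these UMIs, while no induced cell held more than 87. The median cell had 3 Cst6 UMIs in each library, and without the 5 highest cells the ratio was -0.02 (-0.26 to 0.21). The same cells carried kallikrein 10. Klk10 gave 1004 UMIs (629.7 CPM) in the control and 18 UMIs (9.98 CPM) in the induced library, a log2 ratio of -5.94 (-6.74 to -5.31), of which these 3 control cells held 820, 25 and 155. Kallikrein 7 (Klk7), which cuts corneodesmosomes, gave 381 UMIs (239 CPM) in the control and 256 UMIs (142 CPM) in the induced library, a log2 ratio of -0.75 (-0.99 to -0.52), and the control stayed higher without the 5 highest cells (-3.56, on 66 UMIs). Corneodesmosin (Cdsn), the adhesive protein that such proteases cut, gave 239 UMIs (149.9 CPM) in the control and 94 UMIs (52.1 CPM) in the induced library, a log2 ratio of -1.52 (-1.88 to -1.17) in 10 control and 4 induced cells. These 4 genes changed direction with the class rule: with doubled keratin thresholds, which kept 80 cells in each library, the ratios were 2.20 for Cst6, 2.43 for Klk10, 1.08 for Klk7 and 1.03 for Cdsn. Spink5, which inhibits kallikreins, gave 1469 UMIs (921 CPM) in the control and 1183 UMIs (656 CPM) in the induced library, a log2 ratio of -0.49 (-0.60 to -0.38), and -0.59 without the 5 highest cells. Asprv1, a protease that processes profilaggrin, gave 639 UMIs (401 CPM) in the control and 2166 UMIs (1201 CPM) in the induced library, a log2 ratio of 1.58 (1.46 to 1.71), and the induced library remained higher without the 5 highest cells, at 0.67 (0.45 to 0.91). Casp14, a caspase of terminal differentiation, was spread thinly, with 45 control and 78 induced UMIs, at most 9 in a cell and a log2 ratio of 0.61 (0.07 to 1.18). Calml3 was scarce in suprabasal cells and gave 65 and 75 UMIs.

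**Figure D2:**
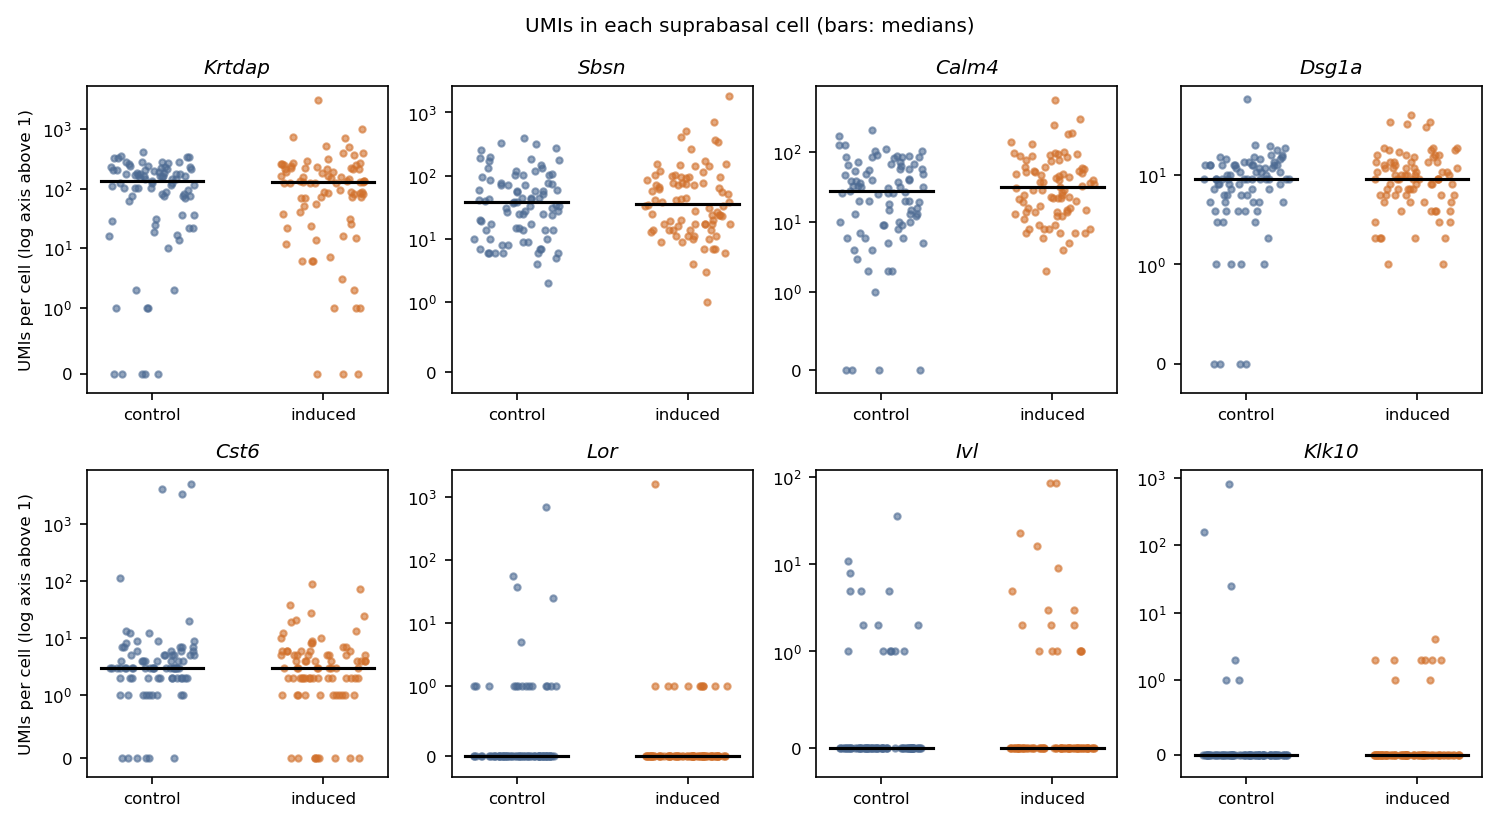
UMIs in each suprabasal cell of the control (85 cells) and induced library (84 cells) for 8 members, on an axis that is linear below 1 and logarithmic above, with black bars for medians. The clouds of Krtdap, Sbsn, Calm4 and Dsg1a overlie each other between libraries, while Cst6, Lor, Ivl and Klk10 have a median of 3 UMIs or 0 and a handful of cells far above it.

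The junction genes differed little between the libraries. Desmoglein 1 alpha (Dsg1a), a desmosomal cadherin with the seed letters in its 3′ UTR, gave 843 UMIs (529 CPM) in the control and 950 UMIs (527 CPM) in the induced library, a log2 ratio of -0.01 (-0.14 to 0.13), and was seen in 81 control and 84 induced cells. Periplakin (Ppl), a plakin that anchors the first layer of the envelope at desmosomes, gave 255 UMIs (159.9 CPM) in the control and 319 UMIs (177 CPM) in the induced library, a log2 ratio of 0.14 (-0.10 to 0.39). Its partner envoplakin (Evpl) gave 169 UMIs (106 CPM) in the control and 196 UMIs (109 CPM) in the induced library, a log2 ratio of 0.04 (-0.27 to 0.34). These 3 intervals hold 0. They cover counting error only and set no limit on a difference between mice. Desmocollin 1 (Dsc1), which also holds the seed letters, had 10 control and 17 induced suprabasal UMIs, and in the upper follicle, where it was highest, it gave 420 UMIs (48.3 CPM) in the control and 319 UMIs (39.2 CPM) in the induced library, a log2 ratio of -0.30 (-0.51 to -0.09).

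The lipid-barrier genes and regulators were within 1.5-fold, other than Aloxe3. Abca12, the transporter that loads lipids into lamellar granules, gave 372 UMIs (233 CPM) in the control and 365 UMIs (202 CPM) in the induced library, a log2 ratio of -0.21 (-0.42 to 0.01). Elovl4, which makes very long fatty acids for ceramides, gave 340 UMIs (213 CPM) in the control and 502 UMIs (278 CPM) in the induced library, a log2 ratio of 0.38 (0.18 to 0.59). The epidermal lipoxygenases Aloxe3 and Alox12b had 88 and 30 control and 58 and 43 induced UMIs, with ratios of -0.78 (-1.28 to -0.28) and 0.33 (-0.36 to 1.06). Grhl3, a grainyhead factor needed for the barrier, gave 224 UMIs (140.5 CPM) in the control and 234 UMIs (129.7 CPM) in the induced library, a log2 ratio of -0.12 (-0.39 to 0.16). Klf4 gave 735 UMIs (461 CPM) in the control and 1082 UMIs (599.8 CPM) in the induced library, a log2 ratio of 0.38 (0.24 to 0.52). Transglutaminase 1 (Tgm1), the main membrane-bound crosslinking enzyme, had 71 control and 55 induced UMIs, and the transglutaminases Tgm3 and Tgm5 at most 7 UMIs in either library.

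Over the set, the suprabasal median log2 ratio was 0.15, from -5.94 for Klk10 to 3.93 for Cnfn, against 0.01 over 7440 genes with at least 20 UMIs. With a call defined as a ratio past 1.5-fold whose interval excludes 1 and at least 50 UMIs over both libraries, 8 of 31 members were called higher in the induced library (background 5.41% of 5252 genes) and 5 lower (background 4.46%). The members called higher were Lor, Asprv1, Sprr1b, Sprr2d, Ivl, Flg2, Cnfn and Casp14, and those called lower were Cdsn, Klk7, Klk10, Cst6 and Aloxe3. In 14 of the 31, at least 80% of the UMIs of 1 or both libraries were in the 5 highest cells, and 10 of the 13 called members were among these 14. Without each gene's 5 highest cells, 4 of the 13 were still called, Asprv1 and Sprr1b higher and Klk7 and Aloxe3 lower, while 5 of the 13 had under 20 UMIs left and could not be read. Of the other 17 members, 14 lay within 1.5-fold. The split of the calls rested on very few cells. Without the 2 control cells and the 1 induced cell in which Lor took 1% of UMIs or more, 4 members were called higher and 9 lower, and without each gene's 5 highest cells 2 were called higher and 3 lower, with Spink5 added to those lower. The mean over cells of each cell's CPM gave a median of -0.32. The summed level of 6 upper follicle markers moved with these results, at 3868.5 CPM in control and 2363.9 in induced suprabasal cells (0 of 6 higher in the induced library), and 11 control but 5 induced suprabasal cells had Defb6 at 5 per 10000 UMIs or more. Without those cells 10 members were called higher and 3 lower, the median was 0.41, and the Cst6 ratio was -3.59 and the Klk10 ratio -5.75. Of 10 dissociation stress genes, 8 were higher in the induced suprabasal cells (3593 against 4404 CPM in all), and the part of these markers in the result was not tested.

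**Figure D3:**
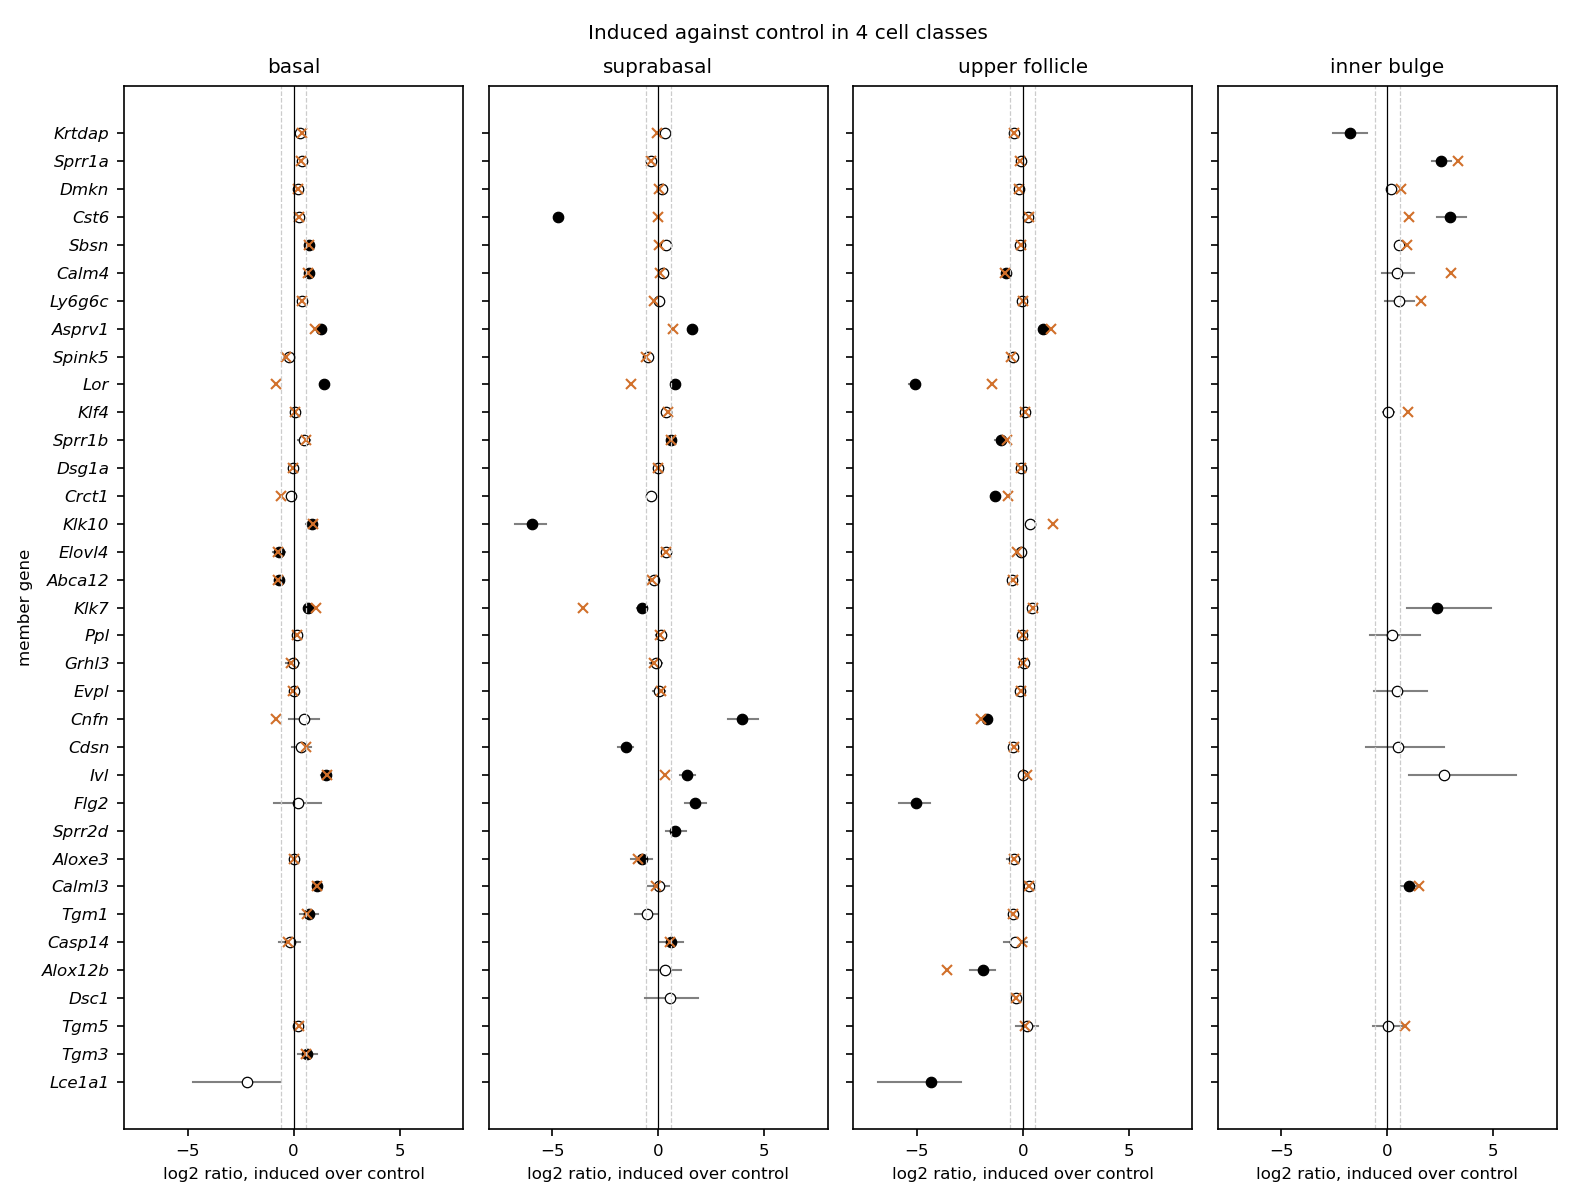
Log2 ratio of induced over control CPM for each gene (rows) in 4 cell classes, with exact 95% counting intervals (grey lines). Filled circles are called members, open circles other members with at least 20 UMIs, dashed lines mark 1.5-fold, and orange crosses give the ratio without the 5 highest cells in each library where at least 20 UMIs remain. Cst6 moves from -4.72 to -0.02 in suprabasal cells, while the crosses of most basal members lie on their circles.

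The set was followed along differentiation with the keratin ratio, the share of Krt1 and Krt10 in the sum of Krt1, Krt10, Krt5 and Krt14 UMIs of a cell. Bins under 0.1, 0.1 to 0.5, 0.5 to 0.8 and from 0.8 held 2550, 86, 30 and 55 control cells and 1991, 63, 26 and 58 induced cells. Of the 35 members, 20 peaked at 0.8 and above in both libraries. The share of all genes that peaked there is not given here, so this count has no background. No minimum of UMIs was set for a peak. The 20 thus include Lce1a1, with 1 control and 4 induced suprabasal UMIs, and Sprr2d, seen in 7 control and 2 induced suprabasal cells. Krtdap, Dmkn, Calm4, Ly6g6c, Dsg1a, Abca12, Elovl4, Grhl3 and Ppl were higher in each bin than in the one before in both libraries. Krtdap was at 88.2, 998, 5276 and 8679 CPM in the control and at 110.4, 1012, 3209 and 11282 CPM in the induced library. The libraries thus differed in opposite directions in the last 2 bins, with ratios of -0.72 (-0.81 to -0.63) at 0.5 to 0.8 and 0.38 (0.34 to 0.42) above. Sbsn (-1.05 and 0.48) and Calm4 (-0.63 and 0.28) did the same, and the bin from 0.5 to 0.8 rests on 30 and 26 cells. The last bin includes the single induced cell with 3168 Krtdap, 1803 Sbsn and 556 Calm4 UMIs, whose keratin ratio was 0.99. Bin ratios without this cell are not given here, so no crossing along differentiation is read from these values. Abca12 was lower in the induced library in all 4 bins, at 26.8, 162, 173 and 269 CPM in the control and 16.5, 65.5, 119 and 232 CPM in the induced library. Its interval held 0 only in the last bin, and the ratios of the first 2 bins were -0.69 (-0.86 to -0.53) and -1.30 (-1.71 to -0.91). Calml3, Tgm5 and Klf4 peaked under 0.1 in both libraries. Lor had no common course, since its highest bin was 0.5 to 0.8 in the control (1232 CPM) and 0.8 and above in the induced library (1237 CPM).

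**Figure D4:**
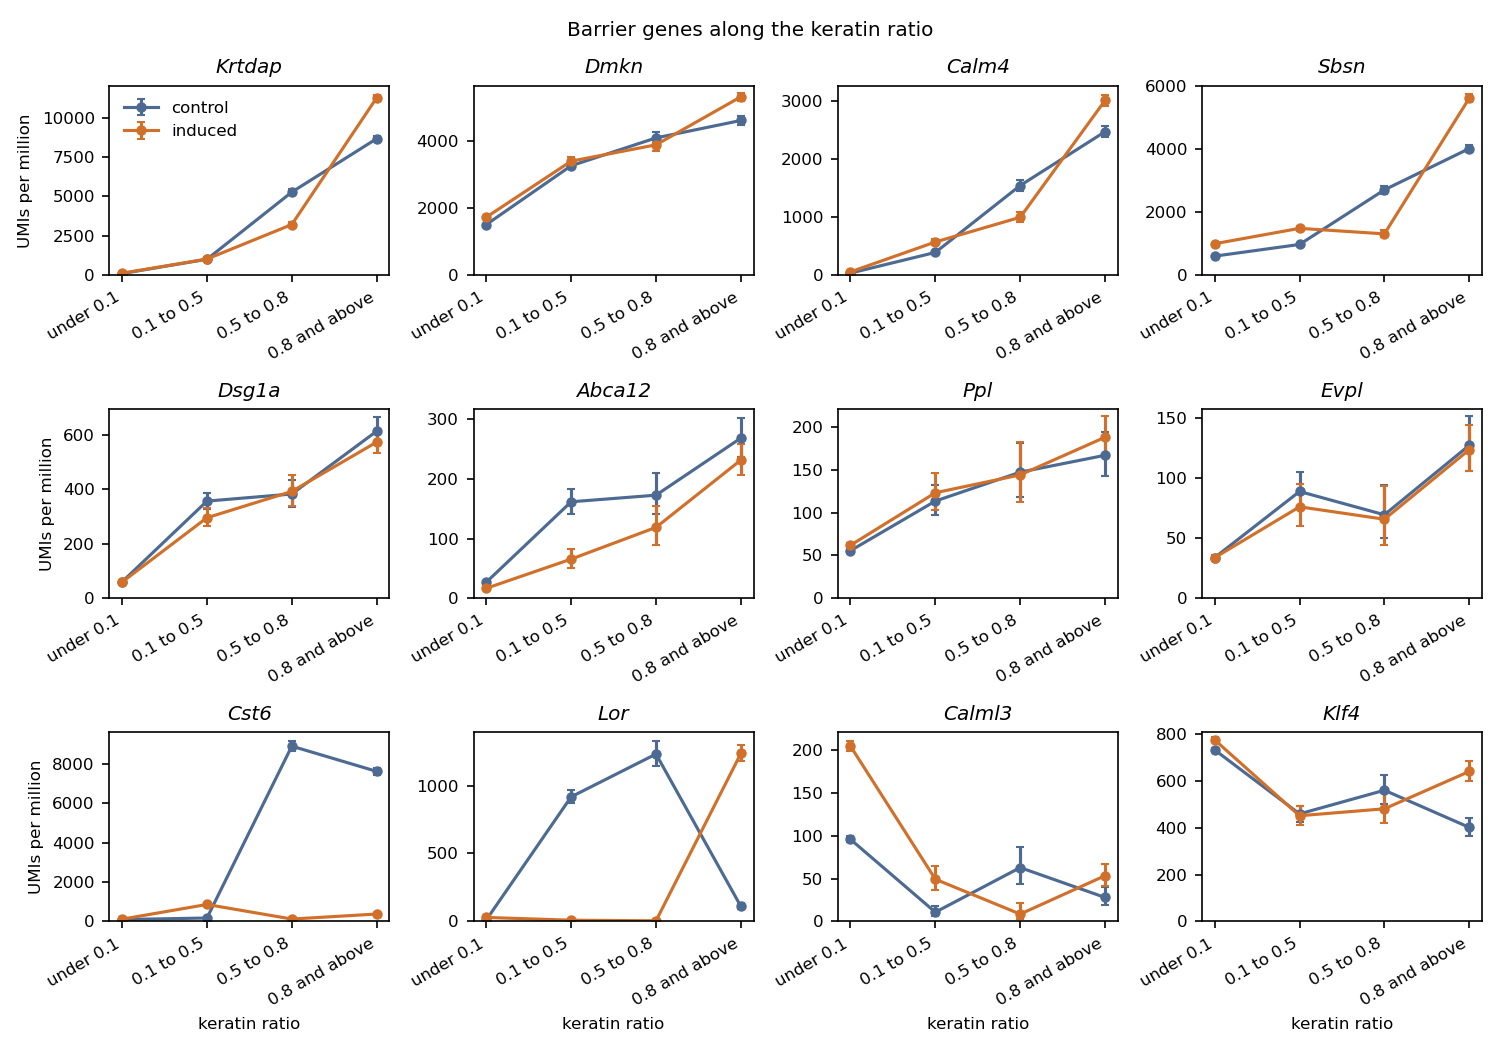
CPM in 4 bins of the keratin ratio (x axis, from basal to suprabasal) for 12 members in the control (blue) and induced (orange) library, with exact 95% counting intervals. Krtdap, Dmkn, Calm4, Dsg1a, Abca12 and Ppl climb from bin to bin in both libraries, Calml3 and Klf4 start at their highest point, and Cst6 and Lor jump where single cells carry their UMIs.

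The few cells that carried Lor were followed on their own. Lor made up 1% or more of the UMIs in 5 control and 2 induced cells, which held 92.6% and 86.1% of all Lor UMIs of the 3936 and 3628 cells. The keratin rule put these 7 cells in 5 different classes: 1 control cell with 4407 Lor UMIs in the upper follicle, 1 with 2330 below the keratin minimum, 1 with 1356 in the intermediate class and 2 with 700 and 25 among the suprabasal cells, and the induced cells with 1640 and 580 among the suprabasal and basal cells. Krt1 had 0 UMIs in 6 of them and 2 UMIs in the other, while Krt10 was present in each. In the upper follicle cell, members made up 22.7% of 41552 UMIs, including 629 for Flg2, 701 for Crct1 and 680 for Asprv1.

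In basal cells most members were rare, but Dmkn, Klf4, Sbsn and Sprr1a were abundant. Of 30 members with at least 50 UMIs, only Lor had 80% or more of a library's UMIs in 5 cells. The ratios thus depended less on single cells than in the suprabasal class. Some members were still uneven, such as Sprr1b, with 56.5% of its control and 53.8% of its induced UMIs in 5 cells. The median log2 ratio was 0.30 over 32 members against 0.05 over 12700 genes. Of 30 members, 10 were called higher in the induced library (background 6.96% of 11487 genes) and 2 lower (background 2.66%), and without each gene's 5 highest cells 10 of these 12 were still called. Sbsn, the most abundant of those called, gave 20013 UMIs (598 CPM) in the control and 25847 UMIs (993 CPM) in the induced library, a log2 ratio of 0.73 (0.70 to 0.76). Calml3 gave 3199 UMIs (95.6 CPM) in the control and 5320 UMIs (204 CPM) in the induced library, a log2 ratio of 1.10 (1.03 to 1.16). Ivl had a UMI in 114 control and 160 induced cells, with 314 UMIs (9.39 CPM) in the control and 694 UMIs (26.7 CPM) in the induced library, a log2 ratio of 1.505 (1.31 to 1.70). Other envelope genes were not called, among them Crct1 with 525 control and 377 induced UMIs (-0.12) and -0.61 without the 5 highest cells. Asprv1 gave 294 UMIs (8.79 CPM) in the control and 568 UMIs (21.8 CPM) in the induced library, a log2 ratio of 1.31 (1.11 to 1.52). Calm4 (31.6 and 52.8 CPM), Klk10 (6.07 and 10.9 CPM), Klk7 (19.1 and 30.6 CPM), Tgm1 (2.63 and 4.30 CPM) and Tgm3 (2.33 and 3.65 CPM) were also called higher in the induced library. Both genes called lower belong to the lipid barrier, but other genes of that function were not called. Aloxe3 was at 14.5 CPM in the control and 14.8 in the induced library, a log2 ratio of 0.04 (-0.16 to 0.23). Alox12b had 5 control and 10 induced UMIs, too few to call. Of 13 barrier lipid genes outside the set, 1 was called lower in basal cells and none higher (backgrounds 2.66% and 6.96%). Abca12 gave 895 UMIs (26.8 CPM) in the control and 430 UMIs (16.5 CPM) in the induced library, a log2 ratio of -0.69 (-0.86 to -0.53). Elovl4 gave 317 UMIs (9.48 CPM) in the control and 153 UMIs (5.88 CPM) in the induced library, a log2 ratio of -0.69 (-0.98 to -0.41).

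The remaining called gene, Lor, pointed both ways. It gave 362 UMIs (10.8 CPM) in the control and 753 UMIs (28.9 CPM) in the induced library, a log2 ratio of 1.42 (1.24 to 1.60) in basal cells, but 580 of the induced UMIs were in 1 cell. Without the 5 highest cells its ratio was -0.85 (-1.14 to -0.56), and 310 control against 135 induced cells had a UMI. Dmkn and Klf4, both abundant in these cells, gave 1507 and 734 CPM in the control and 1727 and 777 in the induced library, ratios of 0.20 and 0.08. The junction genes Dsg1a (59.9 and 59.2 CPM), Ppl (55.6 and 61.9 CPM) and Evpl (33.8 and 33.7 CPM) were within 1.5-fold.

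Shares of cells with a UMI were compared after each cell was thinned to 5000 UMIs, which kept 2477 control and 1910 induced basal cells and left out 73 and 81. Calml3 was detected in 22.3% of control (20.7 to 24.0%) and 36.9% of induced basal cells (34.7 to 39.1%), Sbsn in 60.3% and 65.5%, Calm4 in 10.1% and 14.7%, and Ivl in 2.70% and 5.34%. Before thinning the Calml3 shares were 29.4% and 45.1%. In cells below the keratin minimum, which carry the fibroblast markers, Calml3 was seen in 3.08% and 1.79%, Sbsn in 16.9% and 13.9%, Calm4 in 3.08% and 3.14%, and Ivl in 0.769% and 2.24%. Of 30 members with at least 50 UMIs, the intervals of both libraries did not overlap for 7 that were higher in the induced basal cells (Sbsn, Calm4, Calml3, Asprv1, Ivl, Tgm5 and Cst6, background 6.73% of 11487 genes) and 3 that were lower (Lor, Dmkn and Abca12, background 6.23%). Before thinning, Cst6 had a UMI in 54.7% and 59.5% of basal cells and in 35.8% and 34.1% of cells below the keratin minimum. Dmkn was lower by share but higher by CPM in the induced basal cells, at a log2 ratio of 0.20. The Lor shares, 5.01% and 2.62%, were close to the 4.23% and 2.47% in cells below the keratin minimum, so apart from the 1 cell with 580 UMIs these shares are not read as a difference. Median depths were 12447.5 and 12359 UMIs in basal cells and 5780.0 and 6244 in cells below the keratin minimum. No member's intervals separated among suprabasal cells (backgrounds 0.324% higher and 0.228% lower) or inner bulge cells (0.434% and 0.217%).

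The make-up of the basal class also moved. The 3 bulge markers Krt24, Cd34 and Lhx2 summed to 95.8 CPM in control and 173 in induced basal cells, and all 10 dissociation stress genes were higher in the induced basal cells (5747 against 7097 CPM in all). The 6 suprabasal markers summed to 112 and 141 CPM, with 6 of 6 higher in the induced library and Krt1 at 17.3 and 36.7 CPM. Of 6 upper follicle markers 5 were higher (5448 and 5784 CPM), and the 4 immune markers summed to 195 and 91.4 CPM. Within the 597 and 509 basal cells with Krt17 under 5 per 10000 UMIs, the ratios were 0.36 for Sbsn, 0.43 for Calml3, 2.33 for Ivl, 1.37 for Asprv1, -0.47 for Abca12, -0.15 for Elovl4 and -0.16 for Tgm1, and the median of the set was 0.11. Sbsn, Calml3, Abca12 and Elovl4 were thus no longer past 1.5-fold there, and the part of these markers and of follicle cells in the result was not tested.

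**Figure D5:**
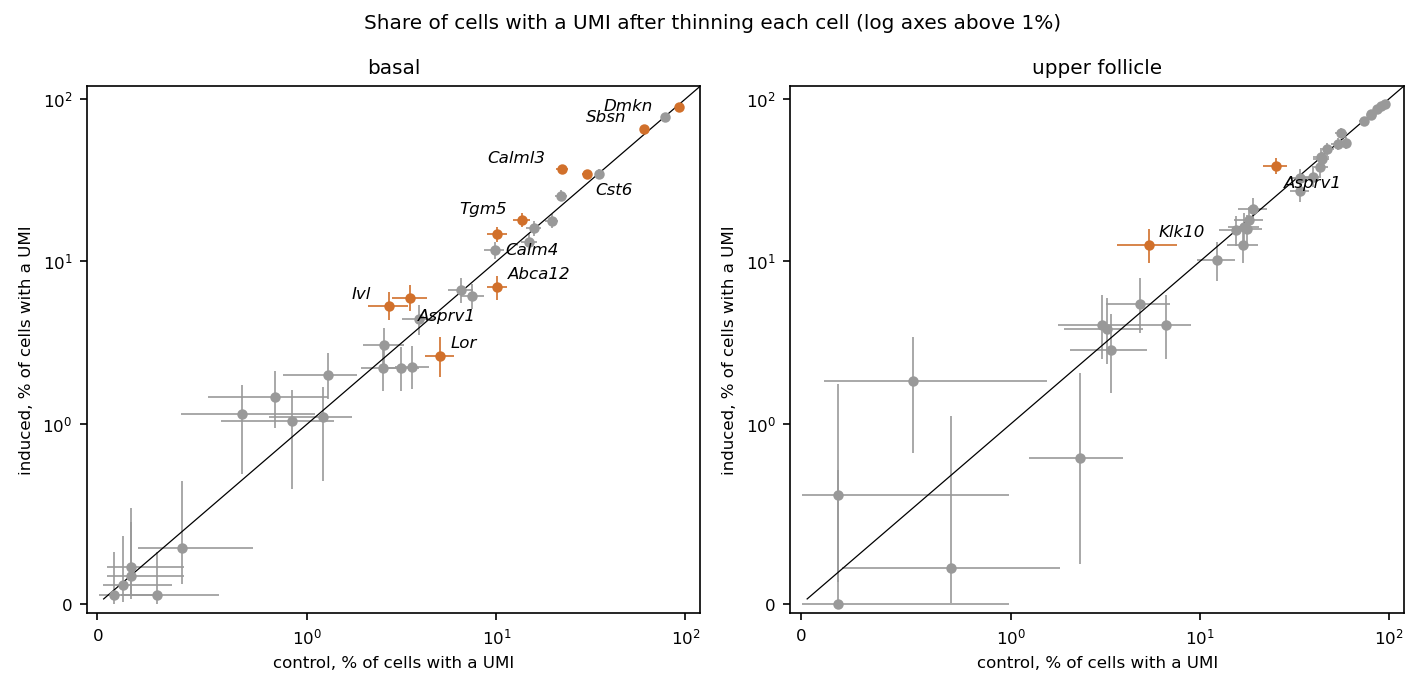
Share of cells with at least 1 UMI of each of the 35 genes after thinning to 5000 UMIs, control (x axis) against induced (y axis), in basal and upper follicle cells, on axes linear below 1% and logarithmic above, with exact 95% binomial intervals. Named orange points have intervals that do not overlap between libraries, with Calml3 at 22.3% and 36.9% in basal cells and Asprv1 at 25.1% and 38.9% in the upper follicle, and the diagonal marks equal shares.

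In the upper follicle the set leaned to the other side. The median log2 ratio was -0.18 over 33 members, against 0.04 over 10578 genes, and 1 member was called higher in the induced library (background 5.03% of 9109 genes) and 8 lower (background 2.81%). The abundant members were within 1.5-fold. Cst6 gave 204752 UMIs (23552 CPM) in the control and 226436 UMIs (27851 CPM) in the induced library, a log2 ratio of 0.24 (0.23 to 0.25). Sprr1a gave 101457 UMIs (11670.2 CPM) in the control and 88224 UMIs (10851 CPM) in the induced library, a log2 ratio of -0.10 (-0.12 to -0.09). Both were at their highest in this class. Klk7 gave 10662 UMIs (1226 CPM) in the control and 13526 UMIs (1664 CPM) in the induced library, a log2 ratio of 0.44 (0.40 to 0.48), and Sbsn was at 4127 and 3814 CPM. Asprv1 was the member called higher, with 4089 UMIs (470.3 CPM) in the control and 7335 UMIs (902 CPM) in the induced library, a log2 ratio of 0.94 (0.88 to 1.00), and it was detected in 25.1% (21.6 to 28.9%) of thinned control and 38.9% (34.5 to 43.3%) of thinned induced cells, against 2.31% and 2.47% in cells below the keratin minimum. Klk10 was not called, with 115 and 147 CPM, but its share of cells was 5.35% and 12.6%. Asprv1 and Klk10 were the 2 of 33 members with intervals apart and higher in the induced library (background 1.49%), and none was lower (background 1.09%).

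Of the 8 members called lower in the upper follicle, Calm4, Cnfn and Crct1 had under 80% of their UMIs in 5 cells in both libraries. Calm4 gave 6358 UMIs (731 CPM) in the control and 3443 UMIs (423 CPM) in the induced library, a log2 ratio of -0.79 (-0.85 to -0.73), and 247 control and 174 induced cells had a UMI. Cnfn gave 1856 UMIs (213 CPM) in the control and 530 UMIs (65.2 CPM) in the induced library, a log2 ratio of -1.71 (-1.85 to -1.57), in 48 and 39 cells. Crct1 gave 2784 UMIs (320.2 CPM) in the control and 1052 UMIs (129 CPM) in the induced library, a log2 ratio of -1.31 (-1.41 to -1.20). The envelope genes Lor and Flg2 were different. Lor gave 4574 UMIs (526 CPM) in the control and 126 UMIs (15.5 CPM) in the induced library, a log2 ratio of -5.08 (-5.35 to -4.83). Flg2 gave 638 UMIs (73.4 CPM) in the control and 18 UMIs (2.21 CPM) in the induced library, a log2 ratio of -5.01 (-5.81 to -4.38). The single Lor-rich control cell described above held 4407 of the Lor, 629 of the Flg2 and 701 of the Crct1 UMIs. Sprr1b (397 and 181 UMIs), Alox12b (126 and 32 UMIs) and Lce1a1 (74 and 3 UMIs, 68 in that control cell) complete the 8. Without cells in which Lor took 1% of UMIs or more, 1 member was called higher and 5 lower in the upper follicle, and the ratios were -0.32 for Lor, 1.05 for Flg2 and -0.90 for Crct1. The upper follicle cells of the induced library also held more UMIs of the 5 sebaceous markers, 1349 CPM in the control against 2531 in the induced library with 5 of 5 higher, and of the 4 immune markers (53.7 against 243 CPM, 4 of 4 higher). Their part in the result was not tested.

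The inner bulge class was small, and 11 members had 50 UMIs or more. Of these, 4 were called higher in the induced library (background 8.14% of 1843 genes) and 1 lower (background 7.33%). Sprr1a gave 45 UMIs (235 CPM) in the control and 716 UMIs (1361 CPM) in the induced library, a log2 ratio of 2.52 (2.10 to 3.00). In each library 5 cells held 80% of its control and 53.1% of its induced UMIs, and the median cell was at 101 and 109 CPM. A UMI was seen in 12 of 21 control and 32 of 61 induced cells. Without the 5 highest cells in each library the Sprr1a ratio was 3.33 (2.47 to 4.55). This leaves out 5 of 21 control but 5 of 61 induced cells, and a larger share of the control UMIs. The ratio therefore does not show that the difference holds without single cells. Cst6 gave 20 UMIs (105 CPM) in the control and 436 UMIs (829 CPM) in the induced library, a log2 ratio of 2.95 (2.34 to 3.71). Of the induced Cst6 UMIs, 1 cell held 301. Klk7 had 3 control and 48 induced UMIs, and 5 cells held 97.9% of the latter. Krtdap, the member called lower, gave 32 UMIs (167 CPM) in the control and 26 UMIs (49.4 CPM) in the induced library, a log2 ratio of -1.76 (-2.57 to -0.97). All 32 control UMIs were in 4 of 21 cells, 15 of them in 1, against 13 of 61 induced cells with a UMI. Without the 5 highest cells 8 UMIs were left, which had to be induced because only 4 control cells had any. Calml3 gave 73 UMIs (382 CPM) in the control and 406 UMIs (772 CPM) in the induced library, a log2 ratio of 1.01 (0.65 to 1.39). It was spread over 16 of 21 control and 54 of 61 induced cells. All 10 dissociation stress genes were higher in the induced inner bulge cells (4562 against 7194 CPM in all), and the 3 bulge markers summed to 424 and 929 CPM, with 3 of 3 higher. The 6 suprabasal markers summed to 41.9 and 101 CPM there and the 6 upper follicle markers to 7659 and 5959 CPM. The part of these markers in the result was not tested. With doubled keratin thresholds, which left 9 and 27 cells, 1 member was called and the median of the set was -0.34 in place of 0.50.

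Genes of the same functions outside the set were read the same way. In suprabasal cells, the lists gave 1 higher and 2 lower of 6 other envelope genes, and 2 and 1 of 8 proteases and inhibitors. They gave 3 and 1 of 11 barrier lipid genes, 0 and 1 of 12 junction genes, and 2 and 0 of 16 differentiation regulators. The background was 5.41% of 5252 genes higher and 4.46% lower. The higher ones with at least 100 UMIs included the kallikreins Klk8 (17.6 and 67.1 CPM) and Klk5 (34.5 and 71.5 CPM), the lipoxygenase Alox12e (59.0 and 172 CPM) and the protease inhibitor Csta1 (17.6 and 48.2 CPM), whose induced UMIs were mostly in 1 cell (77 of 87). The lower ones were cathepsin L (Ctsl, 144 and 77.6 CPM), the ceramide synthase Cers3 (45.8 and 26.1 CPM) and the tight junction protein claudin 4 (Cldn4, 1595 and 1056 CPM).

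Genes named from here on were chosen after their values were seen. In basal cells the called genes of these lists included Cldn4 (426 and 204 CPM, a log2 ratio of -1.06) and Cldn1 (996 and 615 CPM, -0.70), both lower in the induced library, and the regulators Prdm1, Cebpb and Hes1, all higher at 0.66, 0.69 and 0.69. No protease or inhibitor of 8 was called in basal cells, where the background was 6.96% of 11487 genes higher and 2.66% lower. In the upper follicle, 7 of 10 other envelope genes were called lower and none higher (backgrounds 2.81% and 5.03% of 9109 genes). The 7 were Flg, Hrnr, Rptn, Lce1b, Lce1f, Lce1m and Csta1. A single control cell held 1386 of 1408 control UMIs of Lce1m and a single control cell 296 of 303 of Flg. Lor and Flg2 had the same concentration in this class. The other genes called lower are given without their spread over cells, so no broad decrease is read from them.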

How the data were processed

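Per the labels and the matrix header, the authors made the deposited UMI counts with Cell Ranger 3.0.1 on mm10, and the values are not normalized. The aligner settings are not given in the sources used here. Barcodes were kept by the study's filter, with over 200 and under 5000 detected genes and under 10% mitochondrial UMIs. Doublets were not removed, since the automatic cut of Scrublet marked 4 control and 5 induced barcodes; leaving out the 165 and 145 with the highest scores was an alternative.

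Keratinocytes were classed per 10000 UMIs of the cell: at least 50 over 9 keratins and under 20 over 7 markers of other cells, then inner bulge (Krt75 at 2 and Krt6a at 5 or more), upper follicle (Krt79 at 5 or more), a Krt24 class at 2 or more that was set aside, and the others by the keratin ratio, with basal under 0.1 and suprabasal from 0.5. No member enters these rules. UMIs were summed per class and library. Counts come from the 3′ end and do not scale with transcript length, so CPM was set side by side between genes without a length correction. Log2 ratios of induced over control used 0.5 added UMIs, with exact conditional binomial intervals, exact Poisson intervals for CPM and Clopper-Pearson intervals for shares. Medians took genes with at least 20 UMIs, and calls those with at least 50. Strand of counting is not stated, so overlapping genes cannot be told apart.

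Members and lists were chosen with earlier results of these data known. Every member is covered, with UMIs and CPM for those with at least 200 suprabasal UMIs, and from the related lists the called genes, at most the 5 highest and 5 lowest with at least 100 UMIs, of which 1 is not reported here. Of the related genes, Sprr2g and Ctsv matched no feature. Alternatives covered filters, class limits, weighting, normalization and single cells, and 3 of them were added after seeing the data. The code was tested on simulated data. Python 3.11.15, numpy 2.4.6, scipy 1.17.1, pandas 2.3.3, scanpy 1.11.5 and matplotlib 3.10.9 were used.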

Additional observations from a re-analysis of the deposited data

Results flagged for a closer look

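Some members were called on opposite sides in different cell classes of the same 2 libraries. The differences between classes were not tested, since each class has 1 library per group. Lor had log2 ratios of induced over control of 1.42 in basal, 0.80 in suprabasal and -5.08 in upper follicle cells. Flg2 was at 1.75 in suprabasal and -5.01 in upper follicle cells, and Cnfn at 3.93 and -1.71. Sprr1b was at 0.62 in suprabasal and -1.03 in upper follicle cells. Calm4, which is spread over many cells, was at 0.74 in basal and -0.79 in upper follicle cells. Klk7 was at 0.68 in basal and 2.33 in inner bulge cells against -0.75 in suprabasal cells. Klk10 was at 0.85 in basal and -5.94 in suprabasal cells, and Cst6 at 2.95 in inner bulge and -4.72 in suprabasal cells. The Lor, Flg2, Cnfn, Klk10 and Cst6 values each rested on 1 to 3 cells in at least 1 of the classes, and Klk7 in the inner bulge had 97.9% of its induced UMIs in 5 cells, against 3 control UMIs.

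Cells below the keratin minimum, which entered no comparison, also held members in the induced library. There, Cst6 reached 586 CPM, Sprr1a 321, Crct1 158, Asprv1 80.5, Klk10 62.1, and Klk7 and Spink5 45.4 each, all above the control, where Cst6 was at 72.3 CPM. In each of these 7 genes most induced UMIs were in 1 cell, from 1139 of 1611 for Sprr1a and 2662 of 2945 for Cst6 to 309 of 312 for Klk10. Other members were lower in the induced library, with Lor at 689 and 5.38 CPM and Flg2 at 123 and 4.58. Sbsn was at 126 and 50.8 and Dmkn at 146 and 58.9. The same control cell held 2330 of 2364 control UMIs of Lor, 419 of 421 of Flg2, 280 of 432 of Sbsn and 122 of 502 of Dmkn. Without the 5 highest cells of each gene, Sbsn was at 27.9 and 28.0 CPM and Dmkn at 56.8 and 33.4.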

How the results depend on the processing

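The 56 values were recomputed 647 times in all. Medians of the set lay between 0.114 and 0.587 in basal, -0.32 and 0.49 in suprabasal, -0.221 and -0.0254 in upper follicle and -0.34 and 1.88 in inner bulge cells. Members called ranged from 4 to 16, 5 to 15, 6 to 9 and 1 to 6. With doubled keratin thresholds the medians were 0.49 in suprabasal, -0.0254 in upper follicle and -0.34 in inner bulge cells, where 1 member was called, and single ratios turned to 1.03 for Cdsn, 1.08 for Klk7, 2.43 for Klk10 and 2.20 for Cst6 in suprabasal cells, 0.92 for Flg2 in the upper follicle and -0.29 for Cst6 in the inner bulge. At a keratin ratio of 0.8 or more, Klk7 was at 0.15. With calls past 2-fold, 4 members were called in basal and 7 in suprabasal cells, and with at least 100 UMIs 3 were called in the inner bulge. Without the 5 cells with most member UMIs, 5 were called in suprabasal cells, where Lor was at -2.14, Klk10 at 1.98, Cst6 at 0.12 and Sprr2d at -6.53, while Lor was at -0.695 in basal and Flg2 at 0.97 in upper follicle cells. Without each gene's own 5 highest cells, an alternative chosen after seeing the data, 5 were called in suprabasal cells, and Lor was at -0.85 in basal and -1.27 in suprabasal cells. Without cells with Lor at 1% of UMIs, also chosen after seeing the data, Lor was at -0.70 in basal and -3.57 in suprabasal cells and Flg2 at 1.05 in the upper follicle. Without suprabasal cells with Defb6, the third chosen so, the median was 0.41. When CPM was averaged over cells, the suprabasal median was -0.32, Lor -1.97, Sprr1b -0.0489, Sprr2d -2.02, Ivl -0.76 and Flg2 -1.51. With no upper limit on detected genes, suprabasal Lor was at -1.05 and Flg2 at -0.05, and with equal weights for the keratin ratio bins Lor was at -0.11. In basal cells with low Krt17, Tgm1 was at -0.16. The cause of these shifts was not tested beyond the cells each setting leaves out.

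No paired analysis was possible because there is 1 library per group. Inner bulge values are limited by 21 and 61 cells, and suprabasal values of sparse members by the few cells that hold their UMIs.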

Other observations

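The Krt24 class, which entered no comparison, held 160 control and 260 induced cells, and members took 1.01% of its control and 1.16% of its induced UMIs. In the intermediate class, with 86 and 63 cells, they took 1.07% and 1.27%.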
